A study of Homo sapiens with 6 samples.

Results

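The genes described here encode the machinery that breaks fatty acids down by beta-oxidation in mitochondria and peroxisomes, together with malonyl-CoA decarboxylase and the transcription regulators of the pathway. They are 37 genes chosen by name from the 67140 rows of a gene table, and every one was matched to a row. The table holds 6 RNA-seq libraries of CAPAN-2, a human cell line from a pancreatic ductal adenocarcinoma. Of these, 3 libraries came from CAPAN-2 cells in which SIRT4 was overexpressed (SIRT4) and 3 from CAPAN-2 cells that did not overexpress it (ctrl). The series asks which genes differ between these groups. The sources used here do not give the vector, its promoter, how long SIRT4 was overexpressed or how the cells were grown. Whether replicates came from separate cultures is not labelled either. All p-values therefore measure only how these libraries vary, and that variation may be technical.

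Long-chain fatty acids are activated to acyl-CoA and handed to carnitine by carnitine palmitoyltransferase 1 on the outer mitochondrial membrane, the step that malonyl-CoA blocks. Inside the mitochondrion the acyl-CoA is restored and shortened by a cycle of dehydrogenation, hydration, another dehydrogenation and thiolysis, which releases acetyl-CoA and passes electrons to the respiratory chain. Peroxisomes run a related cycle on very long and branched chains. SIRT4 is a mitochondrial sirtuin that has been reported in mouse to deacetylate and inhibit malonyl-CoA decarboxylase, the enzyme that removes malonyl-CoA.

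Totals of estimated counts ran from 50945991 to 65156041 per library. SIRT4 itself was at 3.31, 2.80 and 3.60 CPM (counts scaled to library size by TMM) in SIRT4 libraries, against 2.47, 1.96 and 1.83 CPM in ctrl libraries. The groups did not overlap, yet the difference of 0.63 on the log2 scale (SE 0.21; edgeR adjusted p = 0.0752) missed the threshold of 0.05. DESeq2 gave an adjusted p of 0.0392, and the alternatives ranged from 0.0392 to 0.248. The 7 ductal epithelial markers summed to 4220 to 4395 CPM in SIRT4 libraries and 2018 to 2158 CPM in ctrl libraries. Most of this was KRT8, KRT18 and KRT19. The other markers KRT7, MUC1, EPCAM and CDH1 were at 8.91, 15.45, 37.7 and 117 CPM in SIRT4 libraries. In ctrl libraries they were at 7.105, 12.1, 43.1 and 107 CPM. Of the 7, 3 rose, the keratins KRT8, KRT18 and KRT19, whose many pseudogenes can share their reads, and none fell. EPCAM was lower without overlap but did not pass (log2 fold change -0.19, edgeR adjusted p = 0.113). The summed acinar markers reached at most 0.252 CPM in SIRT4 and 0.349 CPM in ctrl libraries, and the endocrine markers INS and GCG were listed at 0. Of the hepatocyte markers ALB and TTR were listed at 0, and APOA1 was at 0.173 CPM in SIRT4 and 0.141 CPM in ctrl libraries. The muscle marker MYH7 was listed at 0, with summed levels of at most 0.621 CPM in SIRT4 and 0.138 CPM in ctrl libraries over the 3 muscle genes. Adipocyte markers summed to 0.433 to 0.757 CPM in SIRT4 and 1.203 to 1.83 CPM in ctrl libraries, nearly all of it PLIN1, which fell, while LEP was listed at 0. Among fibroblast markers COL1A2 and DCN were listed at 0, and COL1A1 was at 170 CPM in SIRT4 and 175 CPM in ctrl libraries. Of the leukocyte markers, CD3E was listed at 0 and CD14 was at 3.36 CPM in SIRT4 and 2.26 CPM in ctrl libraries. The part of these markers in the results below was not tested.

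Of the 37 genes, 36 passed the low-count filter, and 9 of them rose while 3 fell in SIRT4 libraries. Their median log2 fold change was 0.08, beside -0.02 over all 20786 genes tested with the quasi-likelihood test of edgeR and Benjamini-Hochberg adjustment. The members called were 33.3% of those tested, and in all genes tested 17.1% were called. Among the 12699 tested genes whose mean CPM lay within the range of the tested members, 24% were called. Higher calls made up 9.38% and lower calls 7.67% of all genes tested. The CPM of the groups did not overlap for 22 of the 36, or 61.1%, where 37.6% of all genes tested showed this. Of these 22, 14 were higher and 8 lower, beside 18.6% and 19% of all genes tested. No member changed by as much as 2-fold. Against a fold change of 1.2 in place of no change, 4 of the 12 passed, CPT1A and HADHA higher and ACAD11 and ECI1 lower. With library size as the only scaling 7 members were higher and 4 lower, PPARGC1B being the added one.

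**Figure D1:**
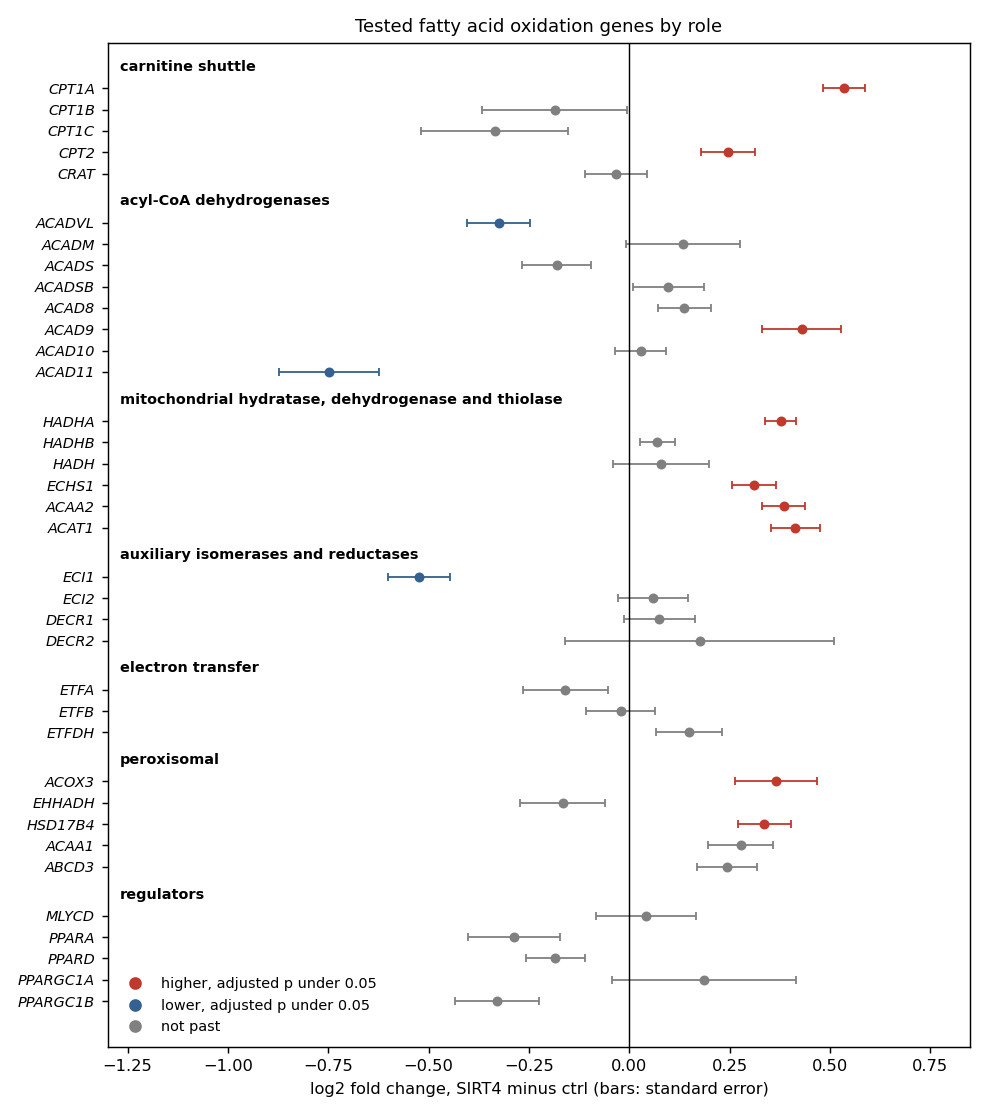
The plot gives the log2 fold change (SIRT4 minus ctrl, horizontal axis) of the 36 tested genes, grouped by role, with standard errors as bars and 3 libraries per group. Red points are the 9 genes that rose, blue points the 3 that fell (ACADVL, ACAD11 and ECI1) and grey points those that did not pass; no electron transfer gene and no regulator passed.

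The RNA of the whole set differed little. The summed CPM of the 37 genes was 2407, 2364 and 2408 in SIRT4 libraries, against 2225, 2159 and 2201 in ctrl libraries. Every SIRT4 library was therefore above every ctrl library, at a ratio of 1.09 between the group means. CPT1A and HADHA were the 2 risers with the highest CPM. Without them, the other 35 genes summed to 1771 ± 18 CPM in SIRT4 and 1740 ± 34 CPM in ctrl libraries (SD, n = 3 each). That ratio was 1.02, and leaving out risers while keeping the genes that fell could only lower it. By role, the summed level of the mitochondrial hydratases, dehydrogenases and thiolases was 1.24 times as high in SIRT4 as in ctrl libraries, that of the carnitine shuttle 1.29 times and that of the peroxisomal genes 1.205 times. The same ratio was 0.922 for the acyl-CoA dehydrogenases, 0.948 for electron transfer, 0.9005 for the auxiliary enzymes and 0.886 for the regulators. These sums carry no test. In bulk libraries, a lower level in every cell and fewer cells that hold the RNA cannot be told apart.

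**Figure D2:**
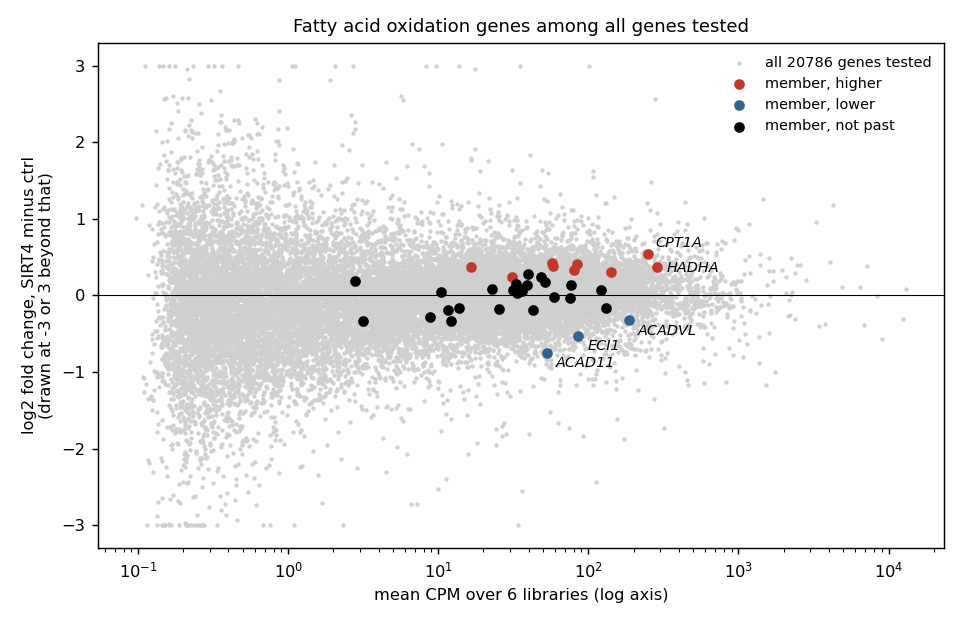
Each grey point is one of the 20786 genes tested, by mean CPM over the 6 libraries (horizontal log axis) and log2 fold change, SIRT4 minus ctrl (vertical axis, values beyond 3 drawn at 3). The members, in red where higher, blue where lower and black where not past the threshold, lie within the cloud of other genes of like level, between log2 fold changes of -0.75 and 0.53.

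The carnitine shuttle carries acyl groups into the mitochondrion, and 2 of its 5 genes, CPT1A and CPT2, rose while none fell. These were 40% of the shuttle genes, where 17.1% of all genes tested were called. CPT1A (ENSG00000110090, GRCh38 chromosome 11, 68754620 to 68844410, minus strand), the malonyl-CoA-sensitive entry enzyme outside muscle, was at 288, 285 and 316 CPM in SIRT4 libraries, against 203, 201 and 210 CPM in ctrl libraries. The groups were well apart, and the log2 fold change of 0.53 (SE 0.05; edgeR adjusted p = 0.000432) was the largest rise among the members. CPT2, which returns the acyl group to CoA on the inner membrane, was at 32.6, 33.5 and 34.1 CPM in SIRT4 libraries and 28.5, 27.95 and 28.0 CPM in ctrl libraries. The groups did not overlap, and CPT2 rose by 0.25 on the log2 scale (SE 0.07; edgeR adjusted p = 0.0398). That call was lost whichever library was left out: the adjusted p by edgeR was 0.0692, 0.107 and 0.102 without SIRT4 replicate 1, 2 or 3, and 0.0812, 0.0858 and 0.1004 without ctrl replicate 1, 2 or 3. With all libraries kept, edgeR gave CPT2 an adjusted p of 0.0631 by library size only and 0.0548 without the low-count filter.

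CPT1B, the muscle form, was at 11.8, 12.6 and 7.94 CPM in SIRT4 libraries, against 12.1, 11.2 and 13.55 CPM in ctrl libraries. The groups overlapped (log2 fold change -0.19, SE 0.18, edgeR adjusted p = 0.552), and SIRT4 replicate 3 was the low one. The read-through gene CHKB-CPT1B shares 66.4% of the exon bases of CPT1B and was at 2.72, 4.08 and 7.35 CPM in SIRT4 libraries and 4.35, 4.42 and 3.07 CPM in ctrl libraries. In SIRT4 replicate 3 the read-through row was high where the CPT1B row was low, and the sum of both was 14.55, 16.7 and 15.3 CPM in SIRT4 libraries, against 16.4, 15.6 and 16.6 CPM in ctrl libraries. On that sum the log2 fold change was -0.07 (edgeR adjusted p = 0.708; -0.07 and 0.597 with CHKB added). CPT1C, the form best known from brain, was the scarcest of the shuttle genes at 2.77 ± 0.42 CPM in SIRT4 and 3.50 ± 0.06 CPM in ctrl libraries (SD, n = 3 each), and did not pass (log2 fold change -0.34, edgeR adjusted p = 0.266). CRAT, the carnitine acetyltransferase, did not pass either, at 75.1 ± 6.8 CPM in SIRT4 and 76.85 ± 3.2 CPM in ctrl libraries (SD, n = 3 each).

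Lists of further genes are given as counts, with no test of any list. Of 102 genes tested over all of them, 14 rose and 6 fell, or 19.6% called. Of all genes tested 17.1% were called, and 24% of those with a mean CPM in the range of the members. Genes of carnitine supply and transport formed a list of 8, of which 7 were tested, 1 rose and none fell. The riser was SLC25A20, the carrier that exchanges acylcarnitine for carnitine across the inner membrane between CPT1 and CPT2. It was at 26.7, 29.7 and 29.03 CPM in SIRT4 libraries, against 13.2, 19.3 and 13.65 CPM in ctrl libraries. The lowest SIRT4 library stood above the highest ctrl library, and the log2 fold change of 0.89 (SE 0.15; edgeR adjusted p = 0.00595) passed in all 15 alternatives.

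**Figure D3:**
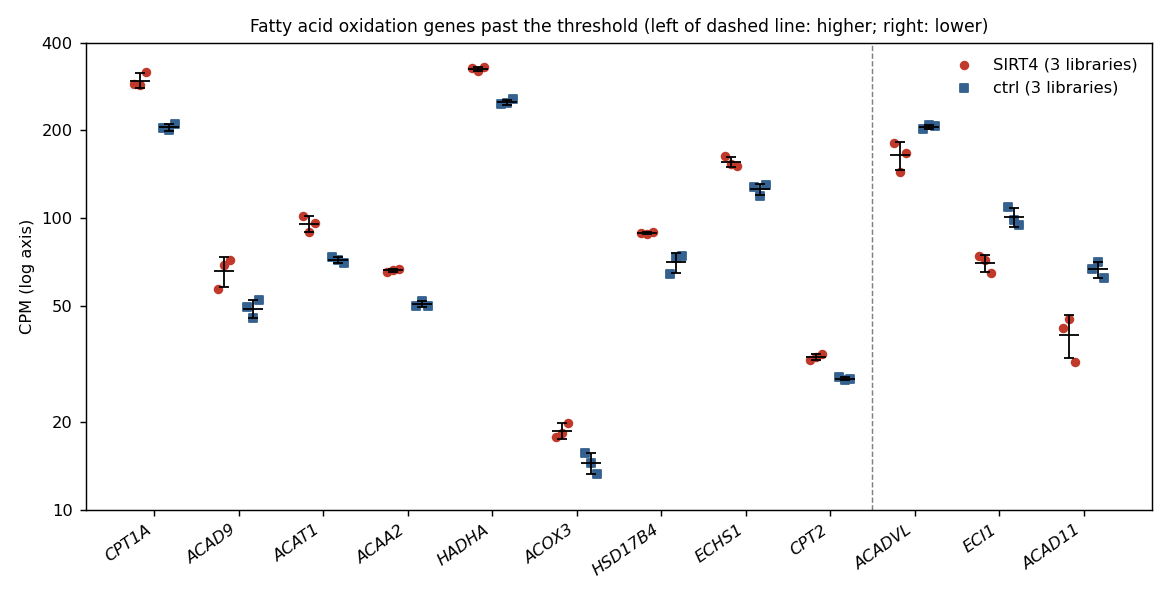
CPM (vertical log axis) in each of the 3 SIRT4 libraries (red circles, left of each pair) and 3 ctrl libraries (blue squares) is shown for the 12 members past the threshold, with the mean and SD as black bars. The groups do not overlap for any of these 12, of which 9 were higher and ACADVL, ECI1 and ACAD11 lower.

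The acyl-CoA dehydrogenases open the cycle and differ in the chains they take, and here they moved in both directions. Of 9 genes 8 were tested, with 1 higher and 2 lower, or 37.5% called beside 17.1% of all genes tested. ACADVL (ENSG00000072778, GRCh38 chromosome 17, 7217125 to 7225273, plus strand), the enzyme for very long and long chains at the inner membrane, was at 182, 144.5 and 167 CPM in SIRT4 libraries, against 203, 209 and 206 CPM in ctrl libraries. All SIRT4 libraries were below all ctrl libraries and more spread. ACADVL fell by 0.33 on the log2 scale (SE 0.08; edgeR adjusted p = 0.0265). The adjusted p by edgeR was 0.0766 without SIRT4 replicate 3, and 0.0725, 0.0883 and 0.0836 without ctrl replicate 1, 2 or 3. DLG4, on the opposite strand and sharing 85 exon bases with ACADVL, was also lower by 0.25 on the log2 scale (edgeR adjusted p = 0.0444), at 48.3 CPM in SIRT4 and 57.4 CPM in ctrl libraries.

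ACAD11 (ENSG00000240303, GRCh38 chromosome 3, 132558138 to 132660723, minus strand), which acts on very long chains and in the breakdown of hydroxylated acids, showed the largest change of all members. It was at 41.9, 45.0 and 32.2 CPM in SIRT4 libraries, against 67.1, 70.7 and 62.2 CPM in ctrl libraries. The highest SIRT4 library was below the lowest ctrl library, and ACAD11 fell by 0.75 on the log2 scale (SE 0.12; edgeR adjusted p = 0.00627). ACAD11 passed in all 15 alternatives, with adjusted p-values of at most 0.0298 over the edgeR, DESeq2 and limma-voom fits.

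ACAD9, a dehydrogenase that also serves the assembly of respiratory complex I, went the other way. It was at 57.0, 69.1 and 71.7 CPM in SIRT4 libraries, against 49.4, 45.3 and 52.2 CPM in ctrl libraries, with no overlap and with SIRT4 replicate 1 nearest to the ctrl libraries. ACAD9 rose by 0.43 on the log2 scale (SE 0.10; edgeR adjusted p = 0.0213). The adjusted p by edgeR was 0.0722 and 0.0667 without SIRT4 replicate 2 or 3, and 0.0627 and 0.0671 without ctrl replicate 1 or 2. ACADM, the medium-chain enzyme whose loss is the best known inherited defect of the pathway, was at 71.5, 85.5 and 84.0 CPM in SIRT4 libraries and 82.6, 58.2 and 78.9 CPM in ctrl libraries. Its groups overlapped, with ctrl replicate 2 the low one (log2 fold change 0.13, SE 0.14, edgeR adjusted p = 0.598). ACADS for short chains (-0.18), ACADSB (0.10) and ACAD8 (0.14) for branched chains, and ACAD10 (0.03) gave log2 fold changes that did not pass, with edgeR adjusted p-values from 0.204 to 0.823. ACADL, the long-chain enzyme, did not pass the filter: it was listed at 4 estimated counts in SIRT4 replicate 3 and at 0 in the other libraries.

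Hydratases, dehydrogenases and thiolases complete the mitochondrial cycle. Of 6 genes tested 4 rose, HADHA, ECHS1, ACAA2 and ACAT1, and none fell. The share called was 66.7%, beside 17.1% of all genes tested and 24% of those with a mean CPM in the range of the members. HADHA (ENSG00000084754, GRCh38 chromosome 2, 26190635 to 26244726, minus strand), the alpha subunit of the trifunctional protein with its hydratase and dehydrogenase activities, was at 327, 319 and 329 CPM in SIRT4 libraries, against 246, 249 and 256 CPM in ctrl libraries. The groups were tight and well apart, and HADHA rose by 0.38 on the log2 scale (SE 0.04; edgeR adjusted p = 0.000567). HADHB (ENSG00000138029, chromosome 2, 26243170 to 26290468, plus strand), the beta subunit with the thiolase activity, was at 123, 124.8 and 124.7 CPM in SIRT4 libraries and 116, 119.8 and 119.4 CPM in ctrl libraries. Its groups did not overlap either, but the difference was small, at a log2 fold change of 0.07 (SE 0.04; edgeR adjusted p = 0.341).

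These 2 subunit genes lie head to head, with RefSeq starts 307 bases apart. Their GENCODE spans overlap, but they share no exon bases. Their promoter windows, from 250 bases before to 50 after each start in RefSeq's GRCh38.p14 table, are shown because the genes read away from one stretch of DNA yet differed unequally between the groups. HADHA is at chr2:26244583-26244882 on the minus strand and HADHB at chr2:26244689-26244988 on the plus strand. Capitals mark the 194 bases that both windows hold, each read on its own gene's strand, 5′ to 3′.
HADHA: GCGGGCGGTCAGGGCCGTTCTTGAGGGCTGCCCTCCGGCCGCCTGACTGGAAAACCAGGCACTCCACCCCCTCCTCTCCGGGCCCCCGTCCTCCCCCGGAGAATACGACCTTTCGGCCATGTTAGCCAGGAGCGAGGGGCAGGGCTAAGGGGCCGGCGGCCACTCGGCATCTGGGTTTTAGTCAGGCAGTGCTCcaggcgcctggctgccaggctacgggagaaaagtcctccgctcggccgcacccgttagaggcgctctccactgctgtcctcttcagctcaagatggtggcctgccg
HADHB: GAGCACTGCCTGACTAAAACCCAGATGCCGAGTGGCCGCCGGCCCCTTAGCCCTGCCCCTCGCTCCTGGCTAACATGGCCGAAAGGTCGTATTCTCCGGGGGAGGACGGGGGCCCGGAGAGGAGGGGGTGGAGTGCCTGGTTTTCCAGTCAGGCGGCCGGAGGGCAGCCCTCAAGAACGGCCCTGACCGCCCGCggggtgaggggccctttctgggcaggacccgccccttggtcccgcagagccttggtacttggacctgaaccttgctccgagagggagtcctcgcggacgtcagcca
Both windows are rich in G and C, at 67.7% for HADHA and 68.0% for HADHB. The ratio of HADHA to HADHB CPM within a library was 2.65, 2.56 and 2.64 in SIRT4 libraries, against 2.12, 2.08 and 2.14 in ctrl libraries. Every SIRT4 ratio was above every ctrl ratio (exact two-sided permutation p = 0.1, the smallest that 3 against 3 libraries allow; 0.1125 adjusted over the 9 ratios computed, which were chosen with values of these data known).

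**Figure D4:**
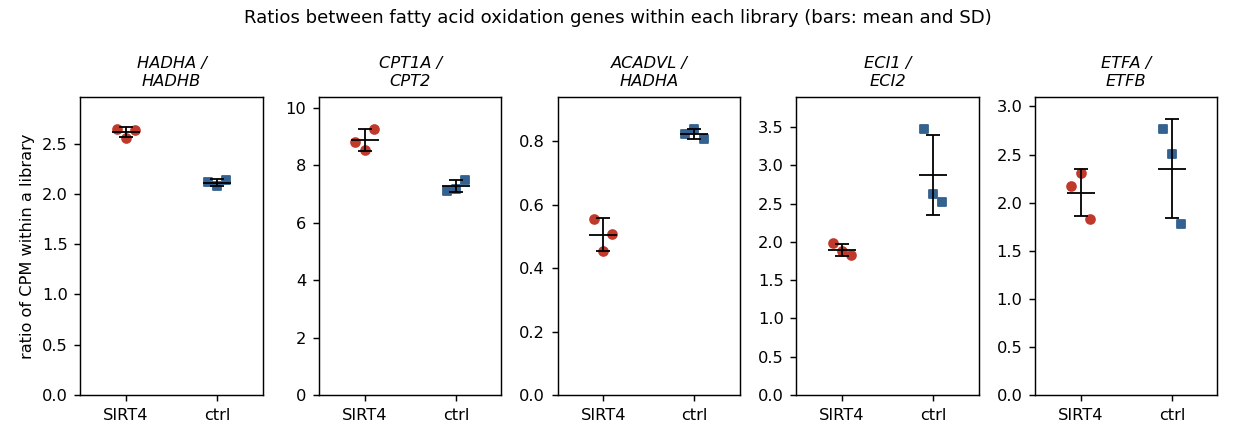
Each panel gives the ratio of the CPM of a pair of members within each library (vertical axis from 0), for 3 SIRT4 libraries (red circles) and 3 ctrl libraries (blue squares), with the mean and SD as black bars. The SIRT4 ratios are all higher for HADHA to HADHB and CPT1A to CPT2, all lower for ACADVL to HADHA and ECI1 to ECI2, and overlap the ctrl ratios for ETFA to ETFB.

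ECHS1, the short-chain enoyl-CoA hydratase, was at 163, 154 and 150.4 CPM in SIRT4 libraries, against 128, 119 and 129.5 CPM in ctrl libraries. It rose by 0.31 on the log2 scale (SE 0.05; edgeR adjusted p = 0.00674) with no overlap. ACAA2, the mitochondrial ketoacyl-CoA thiolase, was at 65.4, 66.1 and 67.1 CPM in SIRT4 libraries, against 50.1, 51.95 and 50.1 CPM in ctrl libraries. The spread within each group was small beside the gap between them, and ACAA2 rose by 0.38 on the log2 scale (SE 0.05; edgeR adjusted p = 0.00244). ACAT1, the acetoacetyl-CoA thiolase that also works in ketone and isoleucine breakdown, was at 101, 89.6 and 95.9 CPM in SIRT4 libraries, against 73.5, 71.9 and 70.1 CPM in ctrl libraries. It rose by 0.41 on the log2 scale (SE 0.06; edgeR adjusted p = 0.00317), again without overlap. HADH, the medium and short-chain hydroxyacyl-CoA dehydrogenase, did not pass (log2 fold change 0.08, edgeR adjusted p = 0.72), at 23.3 ± 3.6 CPM in SIRT4 and 22.1 ± 1.4 CPM in ctrl libraries (SD, n = 3 each). Among genes with a GENCODE pseudogene named after them, the summed pseudogene rows of HADHA and HADHB were listed at 0 and those of ACAA2 at 0.117 CPM in SIRT4 and 0.138 CPM in ctrl libraries.

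The auxiliary enzymes reposition or remove double bonds of unsaturated chains. Of 4 tested, 1 fell and none rose. The share called was 25%, beside 17.1% of all genes tested and 24% of those with a mean CPM in the range of the members. ECI1 (ENSG00000167969, GRCh38 chromosome 16, 2239395 to 2252300, minus strand), the mitochondrial enoyl-CoA isomerase, was at 74.05, 71.7 and 64.9 CPM in SIRT4 libraries, against 109.5, 98.8 and 94.6 CPM in ctrl libraries. The groups did not overlap, and ECI1 fell by 0.52 on the log2 scale (SE 0.08; edgeR adjusted p = 0.00291). Its relative ECI2, found in peroxisomes and mitochondria, was at 37.4, 38.05 and 35.6 CPM in SIRT4 libraries and 31.5, 37.6 and 37.5 CPM in ctrl libraries, with overlap, and did not pass (log2 fold change 0.06, edgeR adjusted p = 0.713). The ratio of ECI1 to ECI2 was 1.98, 1.88 and 1.83 in SIRT4 libraries, against 3.48, 2.63 and 2.52 in ctrl libraries (exact two-sided permutation p = 0.1; 0.1125 adjusted over 9 ratios).

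DECR1, the mitochondrial dienoyl-CoA reductase, did not pass (log2 fold change 0.08, edgeR adjusted p = 0.633). DECR2, the peroxisomal one, was the most uneven member, at 68.2, 36.0 and 58.7 CPM in SIRT4 libraries and 66.3, 38.95 and 39.0 CPM in ctrl libraries. The groups overlapped over nearly their whole range (log2 fold change 0.175, SE 0.34, edgeR adjusted p = 0.791). NME4, on the same strand, shares 14.1% of the DECR2 exon bases, and the sum of both rows, added after seeing the data, was 315, 203 and 236 CPM in SIRT4 libraries and 217, 233 and 227 CPM in ctrl libraries, with overlap (edgeR adjusted p = 0.604).

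Electrons from the acyl-CoA dehydrogenases pass through electron transfer flavoprotein, made of ETFA and ETFB, to ETFDH and on to ubiquinone. None of these 3 genes passed. ETFA was at 123, 137 and 111 CPM in SIRT4 libraries, against 150.4, 144 and 120.0 CPM in ctrl libraries, with overlap (log2 fold change -0.16, SE 0.11, edgeR adjusted p = 0.373). ETFB (-0.02) and ETFDH (0.15) also overlapped, with edgeR adjusted p-values of 0.905 and 0.27 on those log2 fold changes. At an unadjusted p under 0.05, which 30.2% of all genes tested reached, edgeR had none of the 3, and DESeq2 and limma-voom called none after adjustment.

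The peroxisomal genes covered import, oxidation, hydration with dehydrogenation, and thiolysis. All 5 had groups that did not overlap, 4 higher and 1 lower, where 37.6% of all genes tested showed no overlap. Of the 5, 2 passed, both higher, or 40% called beside 17.1% of all genes tested. HSD17B4, the D-bifunctional protein, was at 88.7, 88.5 and 89.7 CPM in SIRT4 libraries, against 64.2, 72.9 and 74.25 CPM in ctrl libraries. It rose by 0.34 on the log2 scale (SE 0.07; edgeR adjusted p = 0.0115). ACOX3, an oxidase of branched chains, was at 17.7, 18.3 and 19.9 CPM in SIRT4 libraries, against 15.7, 14.4 and 13.3 CPM in ctrl libraries. It rose by 0.365 on the log2 scale (SE 0.10; edgeR adjusted p = 0.0448), close to the threshold. Its adjusted p by edgeR was 0.067, 0.0962 and 0.128 without SIRT4 replicate 1, 2 or 3, and 0.0983 and 0.1302 without ctrl replicate 2 or 3. With library size as the only scaling it was 0.0603.

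ACAA1, the peroxisomal thiolase, lay just beyond the threshold at 40.2, 44.0 and 45.5 CPM in SIRT4 libraries, against 38.5, 33.9 and 34.6 CPM in ctrl libraries (log2 fold change 0.28, SE 0.08, edgeR adjusted p = 0.0523). Its adjusted p was 0.0487 without SIRT4 replicate 1, 0.0451 without ctrl replicate 1 and 0.0213 by DESeq2, within a range of 0.0213 to 0.662 over the alternatives. ABCD3, the transporter of branched-chain acyl-CoA, was at 52.1 ± 1.5 CPM in SIRT4 and 44.0 ± 3.55 CPM in ctrl libraries (SD, n = 3 each; log2 fold change 0.24, edgeR adjusted p = 0.0628). EHHADH, the L-bifunctional enzyme, was at 13.0 ± 0.39 CPM in SIRT4 and 14.6 ± 1.4 CPM in ctrl libraries (SD, n = 3 each; log2 fold change -0.17, edgeR adjusted p = 0.343).

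A list of 13 other genes of peroxisomal oxidation had 12 tested, with 3 higher and none lower. That made 25% called, beside 17.1% of all genes tested and 24% of those with a mean CPM in the range of the members. CAT, the catalase that removes the hydrogen peroxide these oxidases make, was at 223 ± 4.3 CPM in SIRT4 and 163 ± 6.0 CPM in ctrl libraries (SD, n = 3 each) and rose by 0.45 on the log2 scale (SE 0.05; edgeR adjusted p = 0.000543). ACOX2, a bile acid and branched-chain oxidase, was at 3.28 ± 0.95 CPM in SIRT4 and 1.64 ± 0.14 CPM in ctrl libraries (SD, n = 3 each; log2 fold change 1.003, edgeR adjusted p = 0.0317). That adjusted p by edgeR was 0.0824 and 0.1002 without SIRT4 replicate 1 or 3, and 0.0787, 0.0956 and 0.0826 without ctrl replicate 1, 2 or 3. By limma-voom on all libraries it was 0.0548. Of 15 peroxisome assembly genes, none rose and 1 fell, beside 9.38% higher and 7.67% lower of all genes tested. The difference between these lists was not tested. PEX6, an ATPase that recycles the import receptor, fell by 0.27 on the log2 scale (edgeR adjusted p = 0.0478). Its adjusted p by edgeR was 0.0547, 0.109 and 0.148 without SIRT4 replicate 1, 2 or 3, and 0.154, 0.0589 and 0.1296 without ctrl replicate 1, 2 or 3. With all libraries kept, it was 0.0543 by edgeR with DESeq2 size factors, 0.0666 by edgeR with a replicate block and 0.0552 by limma-voom. The median log2 fold change was 0.27 over the 12 oxidation genes and -0.01 over the 15 assembly genes.

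None of the 5 regulators passed. MLYCD, malonyl-CoA decarboxylase, was at 10.9, 11.8 and 9.17 CPM in SIRT4 libraries, against 10.6, 10.3 and 10.2 CPM in ctrl libraries. The SIRT4 libraries lay on both sides of the ctrl libraries, and the log2 fold change was 0.04 (SE 0.12; edgeR adjusted p = 0.871). PPARA, the fatty acid-sensing nuclear receptor best known from liver, was at 7.98, 7.96 and 7.86 CPM in SIRT4 libraries, against 10.5, 9.37 and 9.19 CPM in ctrl libraries. Its groups did not overlap, but the log2 fold change of -0.29 (SE 0.11) had an edgeR adjusted p of 0.132. PPARGC1A, the coactivator of mitochondrial biogenesis, was at 3.32, 2.87 and 2.66 CPM in SIRT4 libraries and 3.34, 2.35 and 2.10 CPM in ctrl libraries, with overlap (log2 fold change 0.19, SE 0.23, edgeR adjusted p = 0.652). PPARGC1B, its relative, was at 10.9, 10.1 and 11.6 CPM in SIRT4 libraries, against 13.3, 13.2 and 14.4 CPM in ctrl libraries. It did not pass (log2 fold change -0.33, SE 0.11, edgeR adjusted p = 0.0699), with adjusted p-values of 0.0378 to 0.499 over the alternatives. PPARD, the more widely expressed receptor, was at 40.0 ± 1.5 CPM in SIRT4 and 45.4 ± 3.2 CPM in ctrl libraries (SD, n = 3 each; log2 fold change -0.18, edgeR adjusted p = 0.135). At an unadjusted p under 0.05, edgeR had PPARA, PPARD and PPARGC1B, each with a negative log2 fold change, beside 14.8% of all genes tested. After adjustment none of the 5 passed in the main edgeR fit or limma-voom, and DESeq2 called PPARGC1B. So did edgeR with library size only (adjusted p = 0.0480) and with every value divided by 4 (adjusted p = 0.0489).

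Target genes of the PPAR receptors outside the members were read from a list of 14, of which 12 were tested, none rose and 1 fell. That made 8.33% called, beside 17.1% of all genes tested. Of the 12, 7 had a positive and 5 a negative log2 fold change, with a median of 0.04. PLIN5, a lipid droplet protein that ties droplets to mitochondria, was at 0.369, 0.7765 and 0.519 CPM in SIRT4 libraries, against 1.83, 1.92 and 1.86 CPM in ctrl libraries. PLIN5 fell by 1.76 on the log2 scale (SE 0.33; edgeR adjusted p = 0.00908), and its level was low in both groups. PDK4, the pyruvate dehydrogenase kinase that is a textbook PPAR target and is named after its value was seen, was at 8.19 ± 0.50 CPM in SIRT4 and 10.95 ± 1.1 CPM in ctrl libraries (SD, n = 3 each; log2 fold change -0.42, edgeR adjusted p = 0.0543). Of 12 partner receptors and coregulators, 10 were tested, with 1 higher and 1 lower, or 20% called. RXRB, a partner of the PPAR receptors, fell by 0.40 on the log2 scale (edgeR adjusted p = 0.0117). NRIP1, a corepressor of nuclear receptors, rose by 0.29 (edgeR adjusted p = 0.0334). Its adjusted p by edgeR was 0.0631, 0.0789 and 0.0918 without SIRT4 replicate 1, 2 or 3, and 0.088 and 0.0786 without ctrl replicate 1 or 3. With a replicate block it was 0.0627.

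Promoter windows of 29 of the 37 genes were in the RefSeq table and were searched on both strands. The PPAR and RXR direct repeat (AGGTCA, any base, AGGTCA), its relaxed form (AGGNCA, any base, AGGNCA), the estrogen-related receptor site TCAAGGTCA and the palindromic NRF1 site (GCGCA, then TGCGC) were in none of the 29. These motifs were in 0.0228%, 0.31%, 0.353% and 1.24% of 35116 promoters of the same length, and the 2 forms of the repeat overlap by construction. The sterol element TCACNCCAC was in 1 of the 29, PPARGC1B, where the minus strand holds it from 133 to 125 bases before the start, and in 1.13% of all promoters. A match is a description of letters, and no match says only that these letters are not in the window.

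Fatty acid uptake and synthesis lie upstream of the pathway. Of 18 uptake and activation genes 13 were tested, with 3 higher and 1 lower, or 30.8% called beside 17.1% of all genes tested. Among tested genes with a mean CPM in the range of the members, 24% were called. DBI, the acyl-CoA binding protein, was at 216 ± 8.4 CPM in SIRT4 and 135.5 ± 3.1 CPM in ctrl libraries (SD, n = 3 each) and rose by 0.67 on the log2 scale (edgeR adjusted p = 9.36e-05). FABP5, a fatty acid binding protein with 15 annotated pseudogenes, rose by 0.38 (edgeR adjusted p = 0.0212), with an adjusted p of 0.0755 and 0.0501 without SIRT4 replicate 2 or 3 and of 0.0642 and 0.0618 without ctrl replicate 1 or 3. SLC27A4, a long-chain fatty acid transporter chosen with its value in view, fell by 0.30 on the log2 scale with an edgeR adjusted p of 0.0499, at the threshold. SLC27A3, of the acyl-CoA synthetase and transporter family, rose by 0.58 (edgeR adjusted p = 0.0259). Its adjusted p by edgeR was 0.0782 and 0.0786 without SIRT4 replicate 1 or 2, and 0.0768 and 0.0789 without ctrl replicate 2 or 3. With a replicate block it was 0.0549. The acyl-CoA synthetases ACSL1, ACSL3 and ACSL4, which are the abundant ones here and are named after their values were seen, had log2 fold changes of -0.10, -0.15 and 0.03 and did not pass.

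Malonyl-CoA and fatty acid synthesis genes numbered 6, with 3 higher and none lower, or 50% called beside 17.1% of all genes tested. ACACA, the cytosolic acetyl-CoA carboxylase that makes malonyl-CoA for synthesis, was at 339, 354 and 355 CPM in SIRT4 libraries, against 220, 232 and 236 CPM in ctrl libraries. The groups were well apart, with a log2 fold change of 0.61 (SE 0.04; edgeR adjusted p = 0.000113). ACACB, the mitochondrial form whose malonyl-CoA bears on CPT1, was at 20.95, 17.3 and 19.8 CPM in SIRT4 libraries and 18.4, 15.7 and 17.9 CPM in ctrl libraries, with overlap (log2 fold change 0.16, edgeR adjusted p = 0.388). ACLY and FASN, citrate lyase and fatty acid synthase, rose by 0.94 and 0.96 on the log2 scale. Both were larger differences than that of CPT1A, and the ratio of FASN to CPT1A within a library was 14.7 ± 0.95 in SIRT4 and 10.9 ± 0.45 in ctrl libraries (SD, n = 3 each; exact two-sided permutation p = 0.1, and 0.1125 adjusted over 9 ratios).

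Levels can be compared between genes only per length, here as CPM per kilobase of exon over both groups. ECHS1 (87.05), HADHA (65.6), CPT1A (38.2) and ACADVL (38.1) led on this scale, and PPARGC1B (0.949), PPARA (0.666), MLYCD (0.649), CPT1C (0.534) and PPARGC1A (0.255) were the lowest of the tested genes. In SIRT4 libraries CPT1A was above ACADVL, at 45.2 ± 2.6 and 33.8 ± 3.8 CPM per kilobase, whereas in ctrl libraries it was below, at 31.2 ± 0.75 and 42.4 ± 0.65 (SD, n = 3 each). The ratio of ACADVL to CPT1A CPM within a library was 0.63, 0.506 and 0.529 in SIRT4 libraries, against 0.998, 1.04 and 0.981 in ctrl libraries (exact two-sided permutation p = 0.1; 0.1125 adjusted over 9 ratios). The order of CPT1A and ACADVL in SIRT4 libraries depended on the length used. Per kilobase of the longest annotated transcript CPT1A was below ACADVL in both groups, at 56.7 ± 3.3 and 69.9 ± 7.95 CPM in SIRT4 libraries and 39.1 ± 0.95 and 87.6 ± 1.3 CPM in ctrl libraries (SD, n = 3 each), and 5 members moved by more than 3 ranks.

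**Figure D5:**
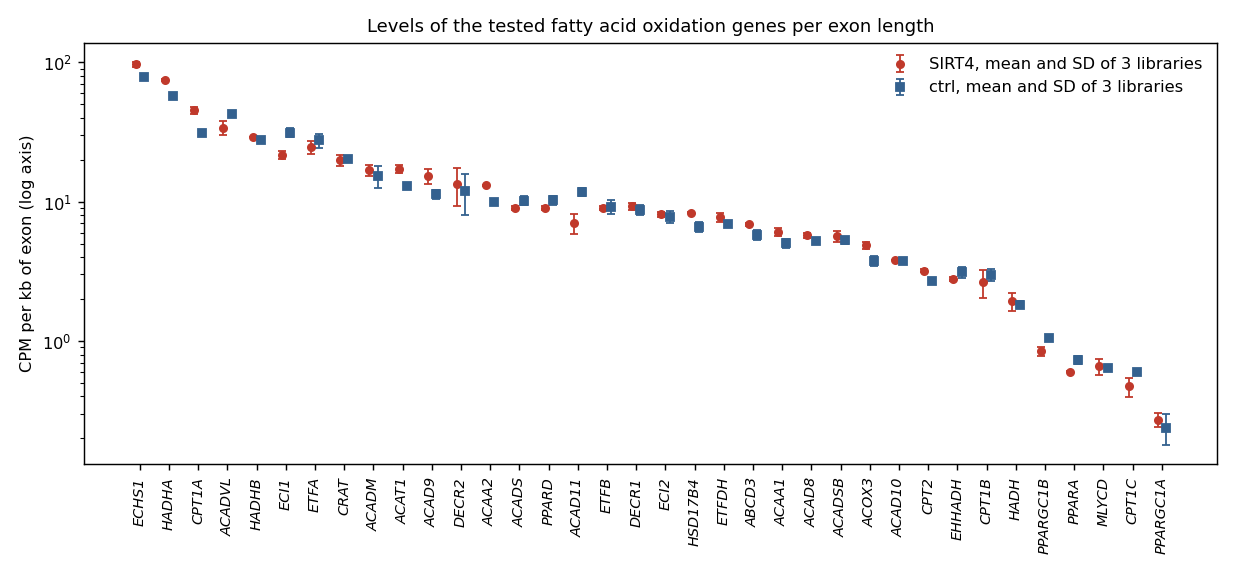
CPM per kilobase of exon (vertical log axis) is given for the 36 tested genes in order of their mean over both groups, as the mean and SD of 3 SIRT4 libraries (red circles) and 3 ctrl libraries (blue squares). Levels span from 87.05 for ECHS1 to 0.255 for PPARGC1A, far more than any difference between the groups.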

How the data were processed

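RNA from CAPAN-2 cells was sequenced in 6 libraries. Per the labels' protocols, Trizol was used for extraction and an NEBNext Ultra kit for the libraries. The submitters' processing notes name STAR, featureCounts, Subread, DESeq2 and hg38 but no versions or roles. In the sources used here, the strand setting and annotation release were not given. The deposited values are whole numbers whose totals differ between libraries, and they were treated as estimated counts because their low values do not fall steadily as read tallies would. Library totals were 50945991 to 65156041.

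A name table gave symbols for 60357 identifiers and GENCODE release 29 for 296 more, which also gave coordinates and exon lengths. The fit used R 4.3.3 and edgeR 4.0.16 (TMM, filterByExpr, glmQLFit with robust estimation, glmQLFTest) with no covariates over all 6 libraries, with Benjamini-Hochberg adjustment over 20786 genes at 0.05. Rounding changed no value. The size of the log2 fold change over the square root of F gave its standard error. The fit was tested on simulated data. The alternatives were DESeq2 1.42.0, limma 3.58.1 (voom), glmTreat at 1.2-fold, other scalings and filters, division by 4, a replicate block and leaving out each library. Dixon's test was not run, since each group has 3 libraries.

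The members and lists were chosen with earlier results of these data known. All members are accounted for, with values in every library for those past the threshold and for a set of 10 whether or not they passed. From each further list up to 3 genes past the threshold with the smallest adjusted p are named, plus ACACA, ACACB, FASN and SIRT4, and PDK4, SLC27A4, ACSL1, ACSL3 and ACSL4 were added with their values in view. Some items are not reported here.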

Additional observations from a re-analysis of the deposited data

How the results depend on the processing

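All 12 called members kept their direction in all 15 alternatives, and CPT1A, ACAD11, HADHA and ECI1 passed in each. Against a fold change of 1.2 (glmTreat) 2 members were higher, with 8 further listed genes higher and 1 lower, and 605 genes higher and 521 lower over the transcriptome, where the test of no change gave 9, 14, 6, 1950 and 1595. Without single libraries the members higher ranged from 6 to 8 and those lower from 2 to 3, the further listed genes lower from 3 to 5, and all genes lower from 978 to 1204 (978 with ctrl replicate 3 left out, 1021 and 1058 with SIRT4 replicate 2 or 3 left out). With limma-voom 3 further listed genes were lower. The log2 ratio of summed member CPM was 0.12, and 0.0911 with library size only. The log2 fold change of SIRT4 was 0.64 by DESeq2, past the threshold.

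The replicate numbers did not pair the libraries: deviations from the group means of same-numbered libraries correlated at 0.01, 0.003 and -0.018. With the replicate block 7 members were higher and 2 lower, 3 further listed genes were lower, and 1450 genes were higher and 1140 lower. The calls of CPT2, ACADVL and ACOX3 were lost there, with adjusted p-values of 0.097, 0.051 and 0.105 by edgeR. The cause of these shifts was not tested.

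Signs of some members that had not passed reversed. With single libraries left out, log2 fold changes ran from -0.3091 to 0.0033 for CPT1B, -0.0803 to 0.0443 for CRAT, -0.0086 to 0.228 for ACADM, -0.0483 to 0.1671 for HADH, -0.0196 to 0.1044 for ECI2, -0.0194 to 0.4794 for DECR2, -0.0844 to 0.0779 for ETFB and -0.0382 to 0.1473 for MLYCD. The positive values were 0.0033 for CPT1B without SIRT4 replicate 3, 0.0443 and 0.0012 for CRAT without SIRT4 replicate 1 or ctrl replicate 3, and 0.0078 and 0.0779 for ETFB without the same libraries. ACADM was negative without ctrl replicate 2, HADH and MLYCD without SIRT4 replicate 2, ECI2 without ctrl replicate 1 and DECR2 without SIRT4 replicate 1. With library size only ACAD10 was at -0.005. With 3 libraries a group, the standard errors of the log2 fold changes were 0.18 for CPT1C, 0.23 for PPARGC1A and 0.12 for MLYCD, so small differences were not detectable for these genes.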

Other observations

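Breakdown of branched-chain and odd-chain acyl-CoA, which feeds the same electron transfer flavoprotein, was read from a list of 15 genes, all tested. Of these, 2 were higher and 2 lower, or 26.7% called beside 17.1% of all genes tested. Among tested genes with a mean CPM in the range of the members, 24% were called. HSD17B10, a mitochondrial hydroxyacyl-CoA dehydrogenase of isoleucine breakdown that is also a subunit of mitochondrial RNase P, was at 101, 113.5 and 112 CPM in SIRT4 libraries, against 74.7, 73.1 and 73.4 CPM in ctrl libraries. It rose by 0.56 on the log2 scale (SE 0.06; edgeR adjusted p = 0.000696) without overlap. MCCC2, a carboxylase subunit of leucine breakdown, rose by 0.45 (edgeR adjusted p = 0.00516), while AUH, the hydratase of the same route, was at 9.58 ± 0.79 CPM in SIRT4 and 14.04 ± 0.31 CPM in ctrl libraries (SD, n = 3 each) and fell by 0.55 on the log2 scale (edgeR adjusted p = 0.0103). The median log2 fold change of the 15 genes was -0.03.

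Of 6 genes of ketone body and acetyl-CoA handling, 16.7% were called, beside 17.1% of all genes tested: 1 rose and none fell. It was ACAT2, the cytosolic acetoacetyl-CoA thiolase that also opens the mevalonate pathway, at 167, 164 and 153 CPM in SIRT4 libraries, against 66.2, 63.1 and 65.1 CPM in ctrl libraries (log2 fold change 1.32, SE 0.05, edgeR adjusted p = 7.28e-06). Its mitochondrial relative ACAT1, a member described above, rose by 0.41. None of 6 flavin supply genes passed in edgeR, DESeq2 or limma-voom after adjustment, 1 had an unadjusted p under 0.05 in edgeR, and their log2 fold changes ran from -0.45 to 0.08.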
